A study of Oryza sativa with 6 samples.

Results

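The transcripts described here are those with clearly higher signal in immature rice endosperm of the osbzip58-1 mutant than in wild type. They were chosen by the array values themselves. After removal of the control probe sets and of the 300 probe sets brightest in wild type, a probe set was kept when its lowest mutant value reached a log2 signal of 8 and lay at least 1 log2 unit, that is 2-fold, above its highest wild type value. Of 57194 rice probe sets 56894 were eligible, and 79 met both limits, which is 0.139% of the eligible ones. With the genotypes exchanged the same limits took 70 probe sets, or 0.123%. Since the values made the choice, levels and differences of the 79 probe sets are given as a description, without a test.

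The tissue was endosperm at 9 days after flowering from field-grown plants. Wild type was the cultivar Dongjin, and the osbzip58-1 mutant was in the Dongjin background. Each genotype had 3 biological replicates, each on its own 1-colour Affymetrix array. One mutant line was used, and the labels do not say what its lesion is.

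OsbZIP58 is a transcription factor of the basic leucine zipper family. It is known in rice for binding the promoters of seed storage protein and starch synthesis genes in the filling endosperm and for activating them. The endosperm at this stage is the tissue that builds up the starch and protein reserve of the grain. Its messenger RNA is therefore dominated by a small number of very abundant storage transcripts, which the choice of probe sets left aside.

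Values are log2 MAS5 signals, and a probe set is a group of short probes for 1 transcript or for several alike. Different probe sets bind with different strength, so a level can be compared between arrays but not between probe sets. The arrays are scaled to a common level, so each difference is relative to the bulk of the signal. In a sample of whole tissue, more cells of a type and more RNA per cell cannot be told apart. Precision is limited by the number of arrays, and an exact two-sided permutation test of 3 against 3 arrays could not go below a p of 0.1.

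Over all rice probe sets the median log2 signal of an array was 5.61 to 5.91. The background level of an array, taken as the 95th percentile of 95 negative control probe sets, lay between 5.50 and 6.27. Of the endosperm genes, the glutelin GluA1 read 16.01, 15.90 and 15.99 in wild type and 15.09, 15.50 and 15.50 in the mutant. Both probe sets of the embryo gene OSH1 were below background in both genotypes. Of the 3 listed embryo genes only OSH1 could be matched, so the presence of embryo tissue was not tested. The gene of OsbZIP58 was not found by name in the gene table used here, so its own level was not analysed here.

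The gained probe sets were moderately bright in the mutant and spread over a wide range in wild type. Their median log2 signal was 7.47, 7.44 and 7.60 on the wild type arrays and 9.79, 9.74 and 9.74 on the mutant arrays. The difference, mean of the 3 mutant minus mean of the 3 wild type values, had a median of 2.23 on the log2 scale, also with the 8 probe sets below background in wild type set at their bounds. It was 1.11 at the lowest and 6.75 at the highest among the other 71, where wild type values below background were taken as read. The same median over all eligible probe sets was -0.04. The gap between lowest mutant and highest wild type value was under 1.5 log2 units in 45 probe sets, between 1.5 and 2 in 13 and at least 2 in 21, and it reached 4 in 5 of them. Summed on the unlogged scale, the 79 probe sets held 0.0654% ± 0.0011 (SD, n = 3) of the rice signal in wild type and 0.375% ± 0.0138 (SD, n = 3) in the mutant.

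**Figure D1:**
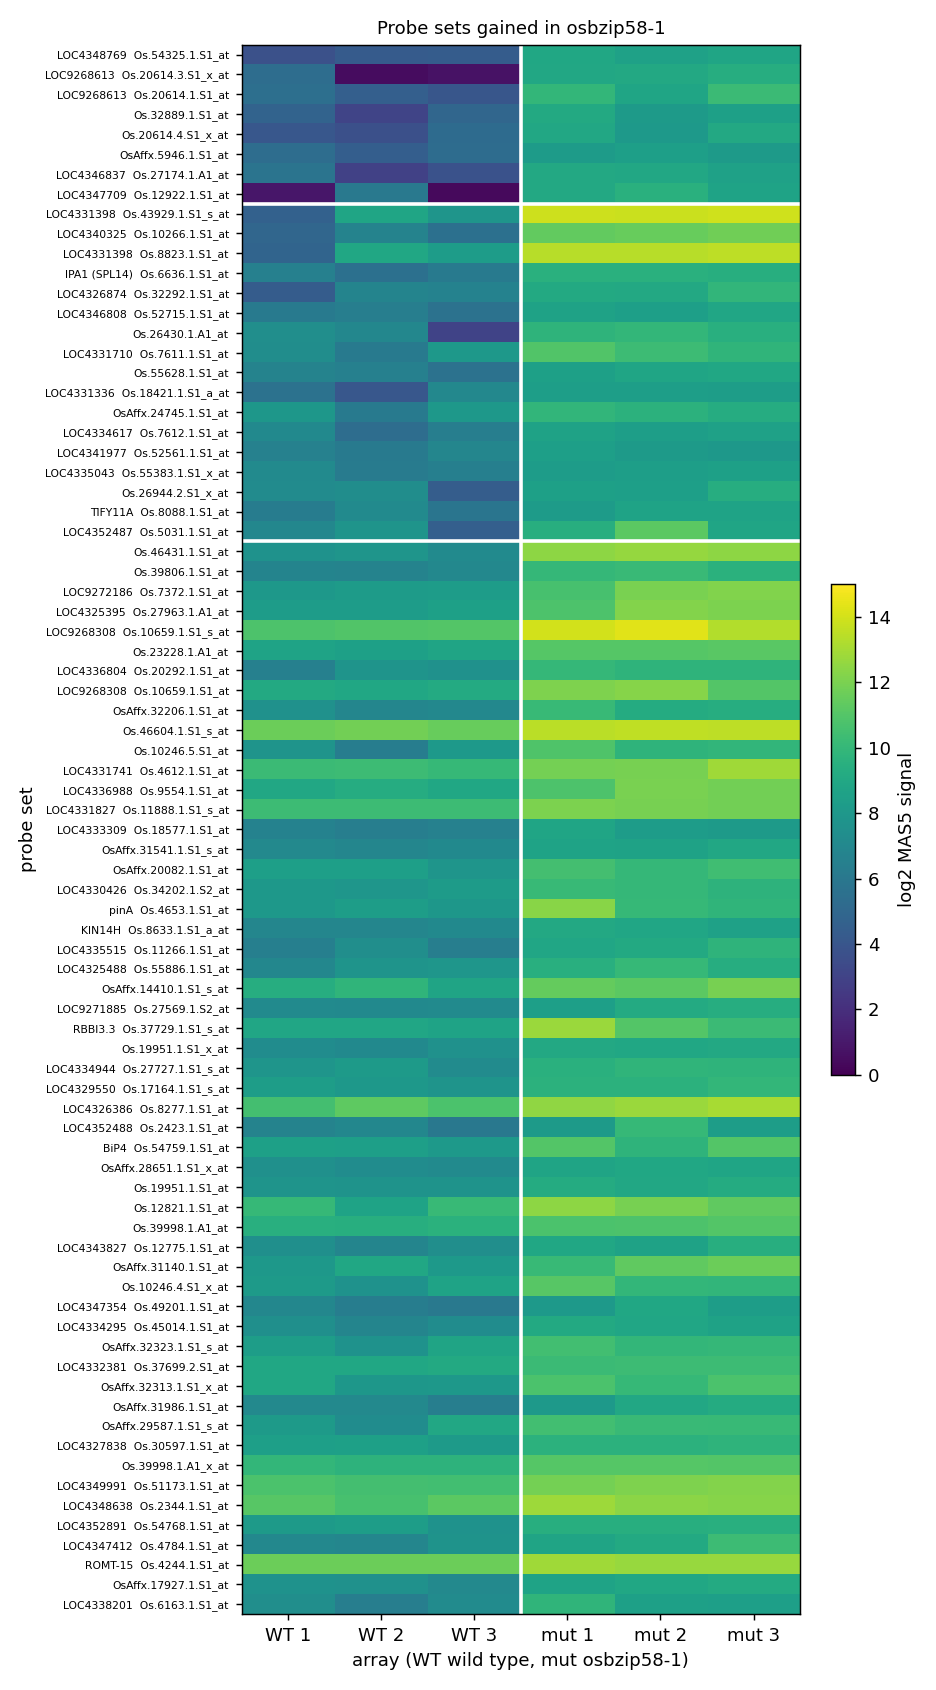
Log2 MAS5 signal (colour) of the 79 gained probe sets (rows, with gene symbol where the platform annotation gives 1) on the 3 wild type and 3 mutant arrays (columns). White lines part the 8 probe sets below background on all wild type arrays, the 17 below it on 1 or 2 of them and the 54 above it on all 3.

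Against the background level the set fell into 3 classes. In 8 probe sets all 3 wild type values were below background, and these are called silent. In 54 all 3 wild type values were at or above it. The other 17 were intermediate, with 1 wild type value below background in 15 and 2 in 2 probe sets. The limit of 8 on the mutant values lies above every background level, so no mutant value of a member could be below background.

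**Figure D2:**
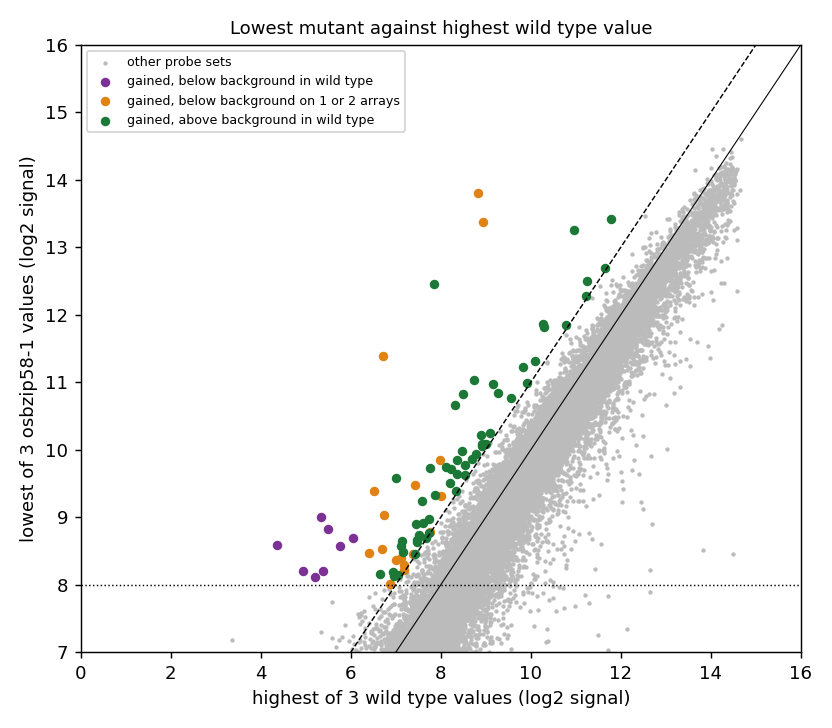
Lowest of the 3 mutant values against highest of the 3 wild type values (both log2 signal) for each eligible probe set with a lowest mutant value of at least 7. The solid line marks equal values, the dashed line a gap of 1 and the dotted line a level of 8. The coloured points are the 79 gained probe sets, most of them close to the dashed line and 5 at least 4 log2 units above equality.

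The silent class had mutant means between 8.32 and 9.66. A wild type signal below background is only a bound, so the fold was computed against the higher of the background level and the probe set's own value on each wild type array. By that bound the silent probe sets were at least 4.73-fold to at least 12-fold higher in the mutant.

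The largest group by name among the silent probe sets was the ID stem Os.20614, an expressed sequence cluster of the array design. It held 3 of the 8. Os.20614.1.S1_at, assigned to LOC9268613, read 5.49, 4.52 and 4.02 in wild type and 9.91, 8.83 and 10.24 in the mutant, at least 12-fold higher. Os.20614.3.S1_x_at, assigned to the same gene, read 5.34, 0.52 and 0.74 against 9.00, 9.07 and 9.33. Os.20614.4.S1_x_at, without a gene in the annotation, read 4.10, 3.64 and 5.22 against 9.00, 8.11 and 9.03. All 3 probe sets were thus below background on every wild type array, while the limits required a signal of at least 8 on every mutant array. The suffix _x_at marks probes that can bind other transcripts as well, so the 3 are not independent readings.

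The remaining probe set of that cluster was no member. Os.20614.2.S1_at read 6.18, 3.13 and 3.00 in wild type and 7.53, 8.23 and 8.12 in the mutant, and missed the limit on the level. Its difference was 3.85, with 2 wild type values below background taken as read. It is assigned to another gene, LOC9267767. In the reference gene order LOC9267767 lies beside LOC4336804, whose probe set was gained with 6.55, 7.75 and 7.58 in wild type and 9.97, 9.73 and 9.74 in the mutant.

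The other silent probe sets were each the only member from their cluster. LOC4347709 read 0.93, 6.05 and 0.36 in wild type and 9.07, 9.52 and 8.69 in the mutant, at least 8.11-fold higher. LOC4346837 read 5.76, 2.88 and 3.80 against 9.06, 8.97 and 8.57, at least 6.94-fold higher. LOC4348769 read 3.70, 4.32 and 4.36 against 8.92, 8.59 and 8.82, at least 6.51-fold higher. By the class and the limits, all wild type values of these probe sets were below background and all mutant values above a signal of 8. The dim wild type values of LOC4347709 were the most uneven. Os.32889.1.S1_at and OsAffx.5946.1.S1_at, both without a gene in the annotation, were at least 5.79-fold and at least 4.73-fold higher. Os.32889.2.S1_at and Os.32889.3.S1_x_at, of the same cluster as the former but no members, were below background on all 6 arrays.

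The intermediate class held 3 of the 5 probe sets with a gap of at least 4. LOC4331398 was read by a pair of probe sets, both members. Os.43929.1.S1_s_at gave 4.63, 8.82 and 7.84 in wild type and 13.83, 13.80 and 13.91 in the mutant, a difference of 6.75. Os.8823.1.S1_at gave 4.86, 8.94 and 8.27 against 13.41, 13.37 and 13.50, a difference of 6.07. In both the first wild type array was the lowest, and the 3 mutant arrays were nearly equal. LOC4340325 read 4.97, 6.71 and 5.51 in wild type and 11.39, 11.51 and 11.75 in the mutant, a difference of 5.82. These genes carry no functional name in the gene table and were picked after their values were seen. LOC4331398 had 1 wild type value below background in each probe set, and LOC4340325 had 2. Such values are only bounds, and the differences given for the intermediate class took them as read. Differences bounded at the background level would be smaller.

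Of the genes with a known role, the intermediate class held IPA1 and TIFY11A. IPA1, also called SPL14, is a transcription factor of the SQUAMOSA promoter binding protein family that sets tiller number and panicle branching in rice. It read 6.51, 5.54 and 6.16 in wild type and 9.55, 9.53 and 9.38 in the mutant, a difference of 3.42. Its 3 mutant arrays were nearly equal and lay 2.87 or more above every wild type array. TIFY11A, a jasmonate ZIM-domain protein, belongs to the repressors of jasmonate signalling. It read 6.27, 7.17 and 5.82 against 8.21, 8.69 and 8.69, a difference of 2.11, with the groups 1.04 apart.

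The 54 probe sets above background in wild type differed by a median of 1.98 on the log2 scale, or 3.94-fold, with a range from 1.11 to 4.97. Their wild type means ran from 6.47 to 11.64 with a median of 8.12, and their mutant means from 8.42 to 13.86 with a median of 10.19. The smallest and the largest differences of this class were 2.15-fold and 31.4-fold.

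Among these 54 the widest gap belonged to Os.46431.1.S1_at, which has no gene in the annotation. It read 7.62, 7.84 and 7.17 in wild type and 12.47, 12.63 and 12.46 in the mutant. Next came Os.39806.1.S1_at, also without a gene, with 6.74, 6.73 and 7.0 against 10.01, 10.19 and 9.58. In both, the arrays of each genotype were close together and the gaps were 4.62 and 2.58. LOC9272186 read 8.02, 8.25 and 8.32 in wild type and 10.66, 11.98 and 12.18 in the mutant, and LOC4325395 read 8.27, 8.31 and 8.50 against 10.82, 12.19 and 12.07. In each of these genes the first mutant array was more than 1 log2 unit below the other mutant arrays and still more than 2 above wild type. Os.23228.1.A1_at, the sixth by gap, read 8.69, 8.54 and 8.74 against 11.03, 11.05 and 11.15.

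LOC9268308 was read by a pair of member probe sets. Os.10659.1.S1_s_at gave 10.81, 10.94 and 10.96 in wild type and 13.99, 14.32 and 13.26 in the mutant, a difference of 2.95. Os.10659.1.S1_at gave 9.11, 8.95 and 9.16 against 12.09, 12.27 and 10.98, a difference of 2.71. In both readings the wild type arrays were close together and the third mutant array was the lowest of its group.

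Genes with a known role in this class were chosen for mention after their values were seen. RBBI3.3 encodes a Bowman-Birk inhibitor of trypsin, a class of small seed and stress proteins. It read 8.87, 8.90 and 8.70 in wild type and 12.77, 10.97 and 10.22 in the mutant, a difference of 2.50. Its probe set ends in _s_at and may bind related inhibitor transcripts. BiP4 encodes an endoplasmic reticulum chaperone of the Hsp70 family and read 8.53, 8.48 and 8.05 against 10.99, 9.77 and 10.98, a difference of 2.23. The mutant arrays of both genes were uneven, with RBBI3.3 highest on the first and BiP4 lowest on the second array.

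KIN14H, a kinesin-14 motor protein of the microtubule system, read 6.87, 6.86 and 7.11 in wild type and 9.05, 8.90 and 8.57 in the mutant, a difference of 1.89. ROMT-15 is annotated by its name as an O-methyltransferase. It read 11.64, 11.63 and 11.65 against 12.85, 12.69 and 12.71. Its difference of 1.11 was the smallest of the 79, and its wild type arrays were nearly identical.

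The limits cut through a continuous range of values. Just inside the limit on the level were LOC4341977, with 6.62, 6.18 and 6.88 in wild type and 8.47, 8.19 and 8.01 in the mutant, and Os.20614.4.S1_x_at, whose lowest mutant value was 8.11. Just outside was OsAffx.25595.1.S1_x_at, with 6.66, 6.66 and 6.85 against 7.97, 7.94 and 8.11. LOC4334038, with 6.36, 6.74 and 6.59 against 7.92, 8.24 and 8.95, was also just outside, and both met the limit on the gap. On that limit LOC4338201, with 7.43, 6.39 and 7.26 in wild type and 9.79, 8.50 and 8.45 in the mutant, was just inside with a gap of 1.02. OsAffx.17927.1.S1_at, with 7.66, 7.61 and 7.05 against 8.69, 8.91 and 9.17, was inside by the same gap. Os.30597.3.S1_x_at, with 8.27, 7.92 and 7.56 against 9.27, 9.35 and 9.30, was just outside. So was LOC4327421, with 9.09, 8.98 and 9.10 against 10.09, 10.49 and 10.50.

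Most members stood alone in their sequence cluster. The 79 probe sets had 73 ID stems, and 68 of these had 1 member. Os.20614 had 3 members, and Os.10246, Os.10659, Os.19951 and Os.39998 had 2 each. Within Os.10246 the 5 probe sets did not read alike. Os.10246.5.S1_at gave 7.79, 6.33 and 8.11 in wild type and 10.85, 9.74 and 9.90 in the mutant, and Os.10246.4.S1_x_at gave 8.19, 7.62 and 8.69 against 11.12, 9.93 and 9.86. Os.10246.1.S1_at, no member, gave 11.78, 11.70 and 11.65 against 11.51, 11.93 and 11.77, so that its groups overlapped. Os.10246.2.S1_at and Os.10246.3.S1_at, also no members, each differed by 1.68, the former without overlap and the latter with it. Within Os.19951 the member Os.19951.1.S1_at gave 7.74, 7.70 and 7.73 against 9.24, 8.97 and 9.24, and Os.19951.1.S1_x_at gave 7.27, 7.10 and 7.60 against 9.04, 8.91 and 9.07. The non-member of that cluster was below background on all 6 arrays. Os.39998.1.A1_at gave 9.46, 9.43 and 9.56 against 10.77, 10.83 and 11.0, and Os.39998.1.A1_x_at gave 9.91, 9.67 and 9.67 against 11.04, 11.02 and 10.98.

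The kinds of probe set in the gained group differed in part from those of the 15666 eligible probe sets whose lowest mutant value also reached 8. Probe sets with the prefix OsAffx, designed from predicted genes, were 13 of the 79, or 16.5%, against 9.19% of those and 44.8% of all eligible probe sets, dim ones included. The annotation gave 1 gene to 50 of the 79, or 63.3%, against 77.4%. The suffix _s_at was carried by 11 members, or 13.9%, against 8.32%, and _x_at by 9 members, or 11.4%, against 12.1%. These shares are descriptions without a test.

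The 50 annotated members named 47 genes, since LOC4331398, LOC9268613 and LOC9268308 had 2 members each. Among these genes 11 had in all 14 further probe sets that were no members, and 10 of those were above background on all arrays of at least 1 genotype. The mutant was above wild type without overlap in 3 of the 10, below in 2 and overlapping in 5, with a median difference of 0.40. Over all 25605 probe sets above background the mutant was above without overlap in 17.4% and below in 16.3%. Scaling to the spike-in controls turned the split of the 10 to 7 above, 0 below and 3 overlapping, and that of all 25605 to 53.1% above and 2.59% below.

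**Figure D3:**
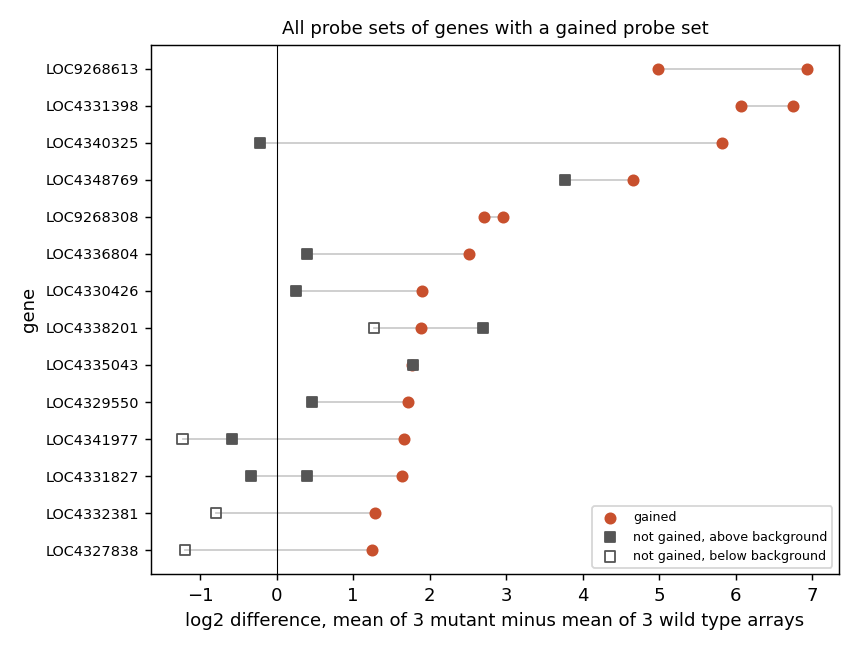
Log2 difference (mean of 3 mutant minus mean of 3 wild type arrays, horizontal axis) of every probe set of the genes that have a gained probe set and at least 1 other probe set (rows). Circles are gained, filled squares are not gained but above background, and open squares are below it. LOC4340325, LOC4331827 and LOC4341977 show probe sets of 1 gene with unlike differences.

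Some genes had like readings and others did not. LOC4335043 had a difference of 1.77 by its member and 1.78 by the other probe set. LOC4348769 had a second probe set at 6.34, 2.04 and 2.00 in wild type and 6.93, 7.17 and 7.60 in the mutant, which missed the limit on the level. Its difference was 3.77, with 2 wild type values below background taken as read. For LOC4340325, whose member differed by 5.82, the second probe set read 7.37, 8.09 and 7.93 against 7.60, 7.58 and 7.58, and its groups overlapped. LOC4331827 had a member at 10.28 on all 3 wild type arrays and 12.02, 11.94 and 11.81 in the mutant. Its probe set Os.11888.3.S1_x_at read 11.43, 11.48 and 11.35 against 11.10, 11.16 and 11.00, lower without overlap as deposited and 0.09 higher with overlap under spike-in scaling. LOC4341977, whose member was just inside the limit on the level, had a brighter probe set, Os.52561.1.S1_x_at. It read 10.70, 11.11 and 11.20 against 10.36, 10.56 and 10.33, lower without overlap as deposited. Under spike-in scaling it was 0.16 lower with overlap. For such genes the difference belongs to the probe set, and whether it belongs to a transcript form was not tested.

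Of the 47 annotated gained genes, 2 pairs were adjacent in the reference gene order and 1 pair had 1 gene between. How often genes not gained form such pairs was not counted, so no clustering is claimed. LOC4325395 and LOC9272186 were adjacent, and so were pinA and RBBI3.3. LOC4352487 and LOC4352488 had 1 gene between them. pinA read 7.99, 8.37 and 7.94 in wild type and 12.36, 10.02 and 9.84 in the mutant, a difference of 2.64. LOC4352487 read 6.97, 7.75 and 4.55 against 9.41, 11.23 and 8.79, and LOC4352488 read 6.71, 6.94 and 5.98 against 8.19, 10.03 and 8.37.

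**Figure D4:**
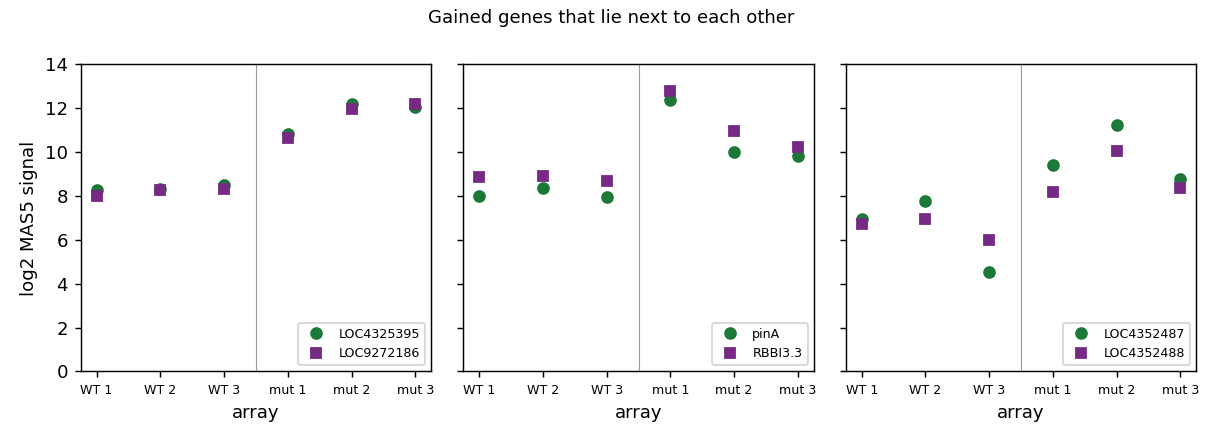
Log2 MAS5 signal on each of the 3 wild type and 3 mutant arrays (horizontal axis) for 3 pairs of gained genes. In the reference gene order 2 pairs are adjacent, and LOC4352487 and LOC4352488 have 1 gene between them. In each pair both genes have the same mutant array standing apart. Levels of different probe sets are not comparable.

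Within each pair the same mutant array stood apart. The first array was the lowest for LOC4325395 and LOC9272186 and the highest for pinA and RBBI3.3, and the second was the highest for LOC4352487 and LOC4352488. These pairs therefore do not follow 1 common order of the mutant arrays.

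The other neighbours of gained genes were higher in the mutant in some cases and lower in others. The gained genes had 89 direct neighbours that were no members, 45 of them with probe sets above background, 49 probe sets in all. The mutant was above without overlap in 11, below in 13 and overlapping in 25, beside 17.4% above and 16.3% below over all probe sets above background. Their median difference of -0.08 became 0.04 under median centring and 0.34 under spike-in scaling, with 24 above, 3 below and 22 overlapping under the latter. TIFY11C, beside TIFY11A and of the same family, read 8.29, 9.27 and 8.47 in wild type and 7.48, 7.64 and 8.41 in the mutant, with overlap. ROMT-17, beside ROMT-15, had 4 probe sets with differences from -1.33 to 0.47. As deposited 3 of these were lower in the mutant without overlap, and 2 of them remained so under all 4 other scalings.

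The mutant arrays were uneven for part of the set. The range of the 3 mutant values exceeded 1 log2 unit in 19 members, or 24.1%, against 3.01% of the 15666 bright eligible probe sets. In these 19 the array that stood apart was the first in 11 (6 high and 5 low), the second in 4 (2 high and 2 low) and the third in 4 (1 high and 3 low). The median SD over the 3 mutant arrays was 0.277 for the members and 0.157 for the bright eligible probe sets, and over the wild type arrays it was 0.383 and 0.138. The wild type means of the members had a median of 7.32, and the part of the signal level in these SDs was not tested. RBBI3.3 with a mutant range from 10.22 to 12.77 and pinA with 9.84 to 12.36 had the widest mutant spread.

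An array left out of the choice gives a reading that the choice did not use. Chosen on the other 5 arrays, 103 probe sets were found without wild type replicate 1, 122 without replicate 2 and 104 without replicate 3, and 135, 110 and 125 without mutant replicates 1, 2 and 3. The left-out array lay on the same side of the other genotype's arrays in 92.0% to 100% of them. Among probe sets that only met the limit on the level this share was 35.8% to 39.2%. The left-out array also met both limits in 58.5% to 76.7%, against 1.06% to 1.72%. Those that met both limits were the same 79 members each time, so the former share only restates the counts above. Probe sets that only met the limit on the level had no gap required of them. The shares therefore compare unlike sets and are no independent support for the gain. Leaving out mutant replicate 3 gave the lowest share on the same side, and leaving out mutant replicate 1 the lowest share within the limits.

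The families of named gained genes were read from lists drawn up after those genes were known. Each family's counts and median include its 1 gained probe set, which the limits placed above without overlap. The counts above are therefore not free of the choice. Of the SPL family 10 probe sets were above background, 2 with the mutant above, 0 below and 8 overlapping, with a median difference of 0.13. Over all 25605 probe sets above background the median was 0.03, with 17.4% above and 16.3% below. IPA1 was the gained one. The TIFY and JAZ family had 17 probe sets, 3 above, 4 below and 10 overlapping, with a median of 0.03 that was -0.04 under quantile normalization, -0.02 under cyclic loess, 0.14 under median centring and 0.45 under spike-in scaling. Under spike-in scaling its split was 7 above, 0 below and 10 overlapping.

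The kinesin-14 family had 10 probe sets, 4 above, 0 below and 6 overlapping, with a median of 0.28. Besides KIN14H, KIN14E read 5.93, 5.71 and 6.48 in wild type and 7.17, 8.01 and 7.57 in the mutant, and KIN14N read 8.32, 7.99 and 7.81 against 9.44, 8.80 and 8.83. Both stayed without overlap under all 4 other scalings. The first and second wild type values of KIN14E were below background and are only bounds. Under spike-in scaling the family had 9 above and 1 overlapping, and the SPL family 8 above and 2 overlapping, while 53.1% of all probe sets above background were then above.

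Proteins that fold others in the endoplasmic reticulum, the BiP chaperones and protein disulphide isomerases, had 12 probe sets, 2 above, 3 below and 7 overlapping, with a median of 0.07. Under spike-in scaling they had 7 above, 0 below and 5 overlapping, with a median of 0.50. BiP1, the abundant chaperone of the endosperm, read 15.30, 15.35 and 15.43 in wild type and 14.66, 14.99 and 14.93 in the mutant, lower by 0.50, in contrast to BiP4. That decrease was 0.08 with overlapping groups under spike-in scaling. The ROMT genes had 5 probe sets of 2 genes, 1 above, 3 below and 1 overlapping. The 1 above was the gained ROMT-15. The others were those of ROMT-17, already counted among the neighbours, so they are no further reading of the family.

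**Figure D5:**
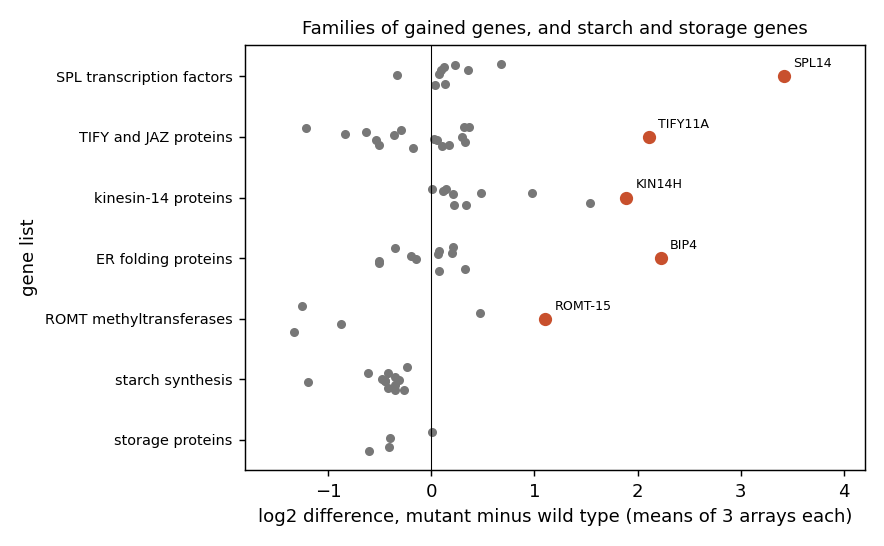
Log2 difference (mutant minus wild type, means of 3 arrays each, horizontal axis) of each probe set above background in 5 gene families that hold a gained gene and in the starch and storage lists (rows). The labelled points are the gained probe sets, each the highest of its list. KIN14E at 1.54, with wild type values below background taken as read, and KIN14N at 0.98 are the next highest. Points are shifted vertically to keep them apart.

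None of the starch, storage and tissue list genes that could be matched was among the 47 annotated gained genes, and the 29 members without a gene could not be compared. Of the starch synthesis list 13 probe sets of 5 genes were above background, with 0 above, 12 below and 1 overlapping and a median of -0.41. Several of them read the same gene, and over all probe sets above background 16.3% were below. Under quantile normalization 3 were below and 10 overlapping, with a median of -0.05. Spike-in scaling gave a median of 0.01 with 3 above and 2 below. Of the storage proteins 4 probe sets of 3 genes had 0 above, 3 below and 1 overlapping, with a median of -0.40. Under quantile normalization all 4 overlapped, with a median of -0.04, and under spike-in scaling the median was 0.02. Of the starch breakdown list only the amylase RAmy3E was above background on all arrays of a genotype. It read 11.65, 10.99 and 12.14 in wild type and 7.35, 13.14 and 11.55 in the mutant, with overlap. A probe set of the amylase RAmy3D was below background on all wild type arrays, at 5.23, 0.57 and 4.62. In the mutant it read 7.25, 9.02 and 1.22, above background on the first and second arrays only, with overlap. The green tissue marker RbcS had 3 probe sets and the aleurone marker Rab21 had 2, all with overlapping groups, at median differences of 0.38 and -0.77. The part of other tissues in the gained signals was not tested beyond these markers.

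Since members were chosen with a gap of at least 1, more than any scaling moved the bulk, their direction could hardly turn with the scaling. Under quantile normalization, cyclic loess, median centring and scaling to the spike-in controls, all 79 probe sets stayed higher in the mutant without overlap, with a lowest difference between 1.14 and 1.53. The number of probe sets that met the limits did depend on the scaling. Spike-in scaling moved the median of all probe sets by 0.42 and gave 282 gained and 34 lost, so that gained ones were 89.2% of both, against 53.0% as deposited. Median centring moved it by 0.12 and gave 111 gained and 56 lost, or 66.5%. Quantile normalization gave 72 gained and 74 lost, or 49.3%, and cyclic loess 68 gained and 68 lost, or 50%. The larger number of gained probe sets therefore did not hold under every scaling.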

How the data were processed

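Total RNA was labelled with biotin and hybridised to 1-colour arrays, per the labels' protocols. The authors deposited log2 MAS5 signals, 1 per probe set and array. The name MAS5 comes from the submitters' processing notes, and the sources used here give no version of it. After undoing the log2, the 2% trimmed mean was 500.1 on each array, so total RNA differences are hidden. The sources used here name no batches or scans.

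The values were used as deposited, with no further normalization. Of 57381 probe sets, 187 controls (prefixes AFFX and RPTR) and the 300 brightest in wild type were dropped. The limits were a lowest mutant value of 8 and a gap of 1. Background was the 95th percentile of 95 negative controls, leaving out 2 reporters. The members, lists and limits were chosen with earlier results of these data known. Because the same values chose the members, no p-value was computed. The script that applies the limits was checked on simulated data.

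Genes came from the platform annotation, which can be old. It lists 22531 probe sets, 22436 rice probe sets with 1 gene and 95 with several, and 34663 rice probe sets are not listed. All 17905 genes were found among 39387 RefSeq genes of assembly ASM3414082v1, which gave symbols and gene order only. Each of the 79 members was described in counts or values. Named with values on all 6 arrays were the 6 silent members with the highest mutant mean, the 6 others above background with the widest gap, members of stems with several members, and those beside each limit. Genes with a known role, LOC4331398 and LOC4340325 were added after their values were seen.

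The lists of starch synthesis, starch breakdown, storage proteins, embryo, aleurone and green tissue markers were matched by symbol for 6 of 11, 3 of 3, 3 of 7, 1 of 3, 1 of 2 and 2 of 2 genes. The family lists were SPL (11 of 11), TIFY and JAZ (17 of 19), kinesin-14 (16 of 18), endoplasmic reticulum folding (16 of 17) and ROMT (3 of 3). Alternatives were other limits, background levels, scalings (quantile and cyclic loess from limma 3.58.1 in R 4.3.3, median centring, and 27 hybridisation spike-in probe sets), a pseudocount and leaving out each array. Other work used Python 3.11.15, pandas 2.3.3 and matplotlib 3.10.9.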

Additional observations from a re-analysis of the deposited data

Results flagged for a closer look

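Among the control probe sets, which were dropped from the choice, 2 of 187 met both limits. These are reporter probe sets, placed on the array for sequences that are not rice genes. RPTR-Os-K01193-1_at had a mean log2 signal of 14.52 ± 0.0786 (SD, n = 3) in the mutant and read 1.71, 4.83 and 1.39 in wild type, so it was at least 350-fold higher. RPTR-Os-U43284-1_s_at had a mean of 14.58 ± 0.125 (SD, n = 3) in the mutant and read 5.79, 3.74 and 4.81 in wild type, at least 364-fold higher. They drew attention because they lie outside the rice measurement and were below background on every wild type array. The labels do not say what sequences the mutant line carries, and the source of these signals was not tested. None of the 300 brightest rice probe sets met the limits.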

How the results depend on the processing

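None of the member differences given here reversed. The balance of gained and lost probe sets turned under quantile normalization, and the medians of several lists outside the set changed sign with the scaling, as given beside them. The count of 79 gained probe sets became 46 at a level limit of 9, 358 at a gap of 0.5, 21 at a gap of 2, 412 with group means in place of extremes and 282 under spike-in scaling. It was 108 at a level limit of 7, 72 under quantile normalization, 68 under cyclic loess, 111 under median centring, 59 without _x_at and _s_at probe sets and 79 with the 300 brightest kept. Leaving out 1 array gave 103 to 135, with 122 without wild type replicate 2, 135 without mutant replicate 1 and 125 without mutant replicate 3. Counted per gene it was 47, and with annotated probe sets only 50, both chosen after seeing the data. The 8 silent probe sets became 18 with background at 7 and 13 by the mean wild type value, and 7 by the 90th percentile or background at 6. Leaving out 1 array gave 8 to 12 silent and 81 to 103 expressed ones against 54. The median difference of 2.23 ranged from 2.17 to 2.65 over all its alternatives. The share of signal in the mutant of 0.375% became 0.449% without the 300 brightest in the total. Stems by their first 2 numbers were 76. Of 116 differences of 29 named probe sets under 4 scalings, 97 moved by less than 1 SD and 19 by more. The counts therefore depend on the limits, and dim wild type values near background limit the classes. No paired analysis was possible because the results come from no test.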
